A study of Homo sapiens with 2 samples.

Results

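Levels of the HOX genes were examined in untreated HEK293T cells, a human line that was derived from embryonic kidney and carries the SV40 large T antigen. The genes were chosen by name, as protein-coding genes called HOXA, HOXB, HOXC or HOXD followed only by a number, and 38 of them are described out of 57736 genes in the tables. Poly(A)+ RNA was sequenced in 2 replicates of 1 group, so no condition was compared with another, and the labels do not say whether the replicates came from separate cultures. The spread between them may therefore be technical. The libraries held 10593491 and 10104118 estimated counts. The tissue label, kidney, was checked against 6 marker genes of kidney and nephron progenitors. Of these, SIX2, WT1, LRP2 and PAX2 were detected, with mean TPM values from 3.41 to 33.3. This share (66.7%) is near the 63.7% of protein-coding genes detected, so the count does not decide whether the label holds. CDH16 had no counts in either replicate, and PAX8, a regulator of kidney development, had 1 count in replicate 2 and none in replicate 1.

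HOX genes encode homeodomain transcription factors that give cells of the embryo their position along the body axis. They lie in the clusters HOXA, HOXB, HOXC and HOXD on chromosomes 7, 17, 12 and 2, and genes with the same number in different clusters are paralogs that descend from a common ancestral gene. Low numbers are used in anterior parts of the body, such as the hindbrain, and high numbers in posterior parts, such as the limbs, the metanephric kidney and the urogenital tract. In the embryo neighbouring genes are often switched on in the order in which they lie on the chromosome.

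The levels below turn on pairs of neighbours that differ strongly, and the promoters of a few such genes are shown for that reason. HOXD13 and HOXD12 are neighbours at opposite ends of the range. HOXB1 had no counts. Each sequence is the 250 bases before the start of the canonical transcript, read from GRCh37 with GENCODE annotation, written 5′ to 3′ on the strand of the gene. Capitals mark CpG dinucleotides.
HOXD13 (chr2:176957199-176957448, plus strand): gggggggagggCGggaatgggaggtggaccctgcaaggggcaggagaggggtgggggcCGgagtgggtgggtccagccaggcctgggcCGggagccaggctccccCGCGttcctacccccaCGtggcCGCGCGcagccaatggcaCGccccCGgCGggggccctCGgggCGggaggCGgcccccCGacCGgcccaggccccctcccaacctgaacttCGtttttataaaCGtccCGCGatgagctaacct
HOXD12 (chr2:176964273-176964522, plus strand): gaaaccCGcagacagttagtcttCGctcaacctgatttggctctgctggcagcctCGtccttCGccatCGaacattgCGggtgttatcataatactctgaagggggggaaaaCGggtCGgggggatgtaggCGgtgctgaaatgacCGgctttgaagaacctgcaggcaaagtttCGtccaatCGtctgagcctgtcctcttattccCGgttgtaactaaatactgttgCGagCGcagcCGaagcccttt
HOXB1 (chr17:46608374-46608623, minus strand): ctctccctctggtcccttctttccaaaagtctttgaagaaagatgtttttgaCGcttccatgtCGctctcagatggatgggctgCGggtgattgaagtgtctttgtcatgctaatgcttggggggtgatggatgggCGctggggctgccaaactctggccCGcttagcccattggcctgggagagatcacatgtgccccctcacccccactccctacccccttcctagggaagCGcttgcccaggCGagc

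These windows hold 21 CpG in HOXD13, 16 in HOXD12 and 7 in HOXB1. The median over the 38 HOX promoters was 14, with a range from 3 in HOXC6 to 40 in HOXA13, against a median of 18 over 19109 promoters of protein-coding genes. Detected protein-coding genes had a median of 23 and undetected ones a median of 6, whereas the detected HOX genes had a median of 14. Across the 38 genes the Spearman correlation between the CpG number and the mean TPM was 0.155, and across all protein-coding promoters it was 0.527. Both are descriptions across genes, which are not independent samples. The motif TATAAA, searched on both strands, was in 6 of the 38 windows (15.8%) and in 9.02% of all. It was found in HOXA3, HOXA9, HOXA10, HOXB7, HOXC5 and HOXD13. These genes reached from the lowest detected level to the second highest, and a match of letters is not evidence of a binding site.

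Most HOX genes were on. Detection was defined as a TPM (a level corrected for transcript length and scaled to a common total) of 1 or more in each replicate. By this rule 34 of 38 HOX genes (89.5%) were detected, against 27.7% of all genes and 63.7% of protein-coding genes. Their summed level was 1227.7 TPM in replicate 1 and 1151.3 TPM in replicate 2, or 1189.5 ± 54.0 TPM (SD, n = 2), which is 0.119% of all transcripts. The median HOX gene had a mean TPM of 20.5, compared with 6.50 for protein-coding genes. Among detected genes alone these medians were 22.3 and 21.2. A level of 10 TPM or more in both was reached by 26 HOX genes (68.4%) and by 43.6% of protein-coding genes, and 50 TPM or more by 8 HOX genes (21.1%) and by 14.9% of protein-coding genes. In a bulk sample, fewer cells with a transcript and less RNA per cell cannot be told apart.

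**Figure D1:**
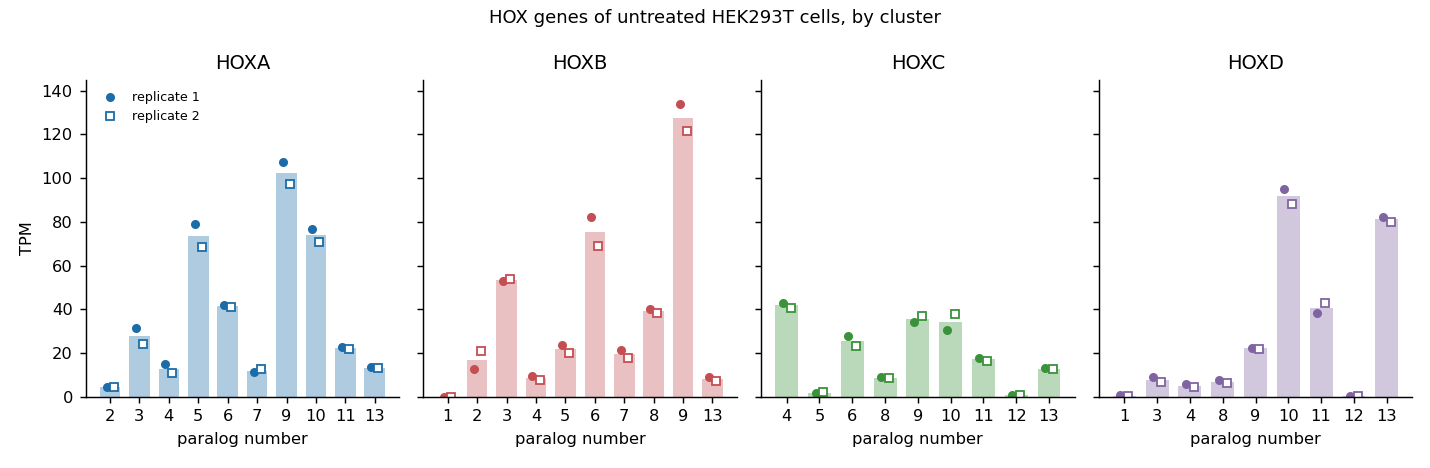
TPM of each HOX gene, by cluster (panels) and paralog number (x axis). Bars show the mean of 2 replicates, circles replicate 1 and squares replicate 2. The bars peak at paralog number 9 in HOXA and HOXB, at 4 in HOXC, where the level of HOXC4 is uncertain, and at 10 in HOXD.

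The order of levels was led by genes of the posterior part of the clusters. HOXB9, which patterns the thoracic skeleton, had a TPM of 133.71 in replicate 1 and 121.55 in replicate 2. It lies on chromosome 17 from 46698518 to 46703720 (GRCh37, minus strand) and stood above 95.1% of protein-coding genes. HOXA9, a regulator of blood progenitors that is often overexpressed in leukaemia, had a TPM of 107.50 and 97.38. HOXD10, which acts in lumbar motor neurons and the hindlimb, followed with 95.04 and 88.33. HOXD13, needed for digits and the urogenital tract, had 82.33 and 80.12. The ranges of the 2 replicates did not overlap between any neighbours in this sequence from HOXB9 to HOXD13. The intervals deposited with each TPM were less clear. In replicate 1 they overlapped for HOXA9 (90.7 to 108.9) and HOXD10 (81.1 to 95.4). In replicate 2 they overlapped for HOXA9 (81.7 to 98.8) and HOXD10 (74.4 to 89.1), and for HOXD10 and HOXD13 (69.7 to 77.8). Those of HOXB9 and HOXA9 did not overlap in either replicate. Below this sequence, HOXB6 (82.30 and 68.81), HOXA10 (76.58 and 70.95) and HOXA5 (78.83 and 68.63) overlapped each other, and HOXB6 overlapped HOXD13. The 5 highest genes held 40.8% of the HOX TPM in replicate 1 and 39.6% in replicate 2. Over the whole order of 38 genes, 14 of 37 neighbouring pairs had ranges that did not overlap, and the remaining 23 could not be ordered beyond the spread between the replicates. With 2 values per gene, ranges apart are not a test of order, and some gaps were small. HOXB7, for example, was at least 17.61 and HOXC11 at most 17.58.

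Next in the order came HOXB3, a hindbrain and pharyngeal gene, with a TPM of 52.77 and 53.67. It lay below HOXA5 and above HOXC4 (42.84 and 40.75) in both replicates. HOXA6 (42.12 and 40.91) and HOXD11 (38.51 and 42.84) overlapped HOXC4, and HOXB8 (40.37 and 38.44) overlapped HOXD11. HOXC9 (34.27 and 36.72), which sets thoracic motor neuron identity, and HOXC10 (30.37 and 37.89) were not separable from each other either. Intermediate levels were found for HOXA3, HOXC6, HOXA11, HOXD9, HOXB5, HOXB7, HOXC11, HOXB2, HOXA13, HOXC13, HOXA4 and HOXA7, from HOXA3 (31.40 and 24.01) down to HOXA7 (11.31 and 12.72). HOXC8, HOXB4, HOXB13, HOXD3, HOXD8, HOXD4 and HOXA2 had mean TPM values between 8.78 and 4.58.

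The detection threshold fell in a gap of the order. Just inside it, HOXC5 had a TPM of 1.72 in replicate 1 and 1.99 in replicate 2, from 22.6 and 25.1 estimated counts. Just outside it, HOXC12 had 0.61 and 0.92 (15.0 and 21.7 counts), and HOXD1 had 0.61 and 0.48 (9 and 6.82 counts). HOXD12 followed with 0.34 and 0.24, from 3 counts in each library. HOXB1, which gives identity to a segment of the hindbrain, had 0 counts in both replicates, and a count of 0 allows up to 3 counts, or 0.241 TPM in replicate 1 and 0.250 TPM in replicate 2. Counting error alone is covered by these limits, since amplified reads are not independent molecules. HOXC12 and HOXD12, the 2 paralogs with number 12, were therefore both below the threshold, whereas all members with numbers 2 to 11 and 13 were above it. For HOXC5, HOXC12, HOXD1 and HOXD12 this call is not firm. The deposited TPM intervals of HOXC5 were 0.713 to 2.40 and 0.839 to 2.90, and those of HOXC12 were 0.208 to 0.827 and 0.319 to 1.14. In replicate 1 the intervals of HOXD1 (0.266 to 1.02) and HOXD12 (0.111 to 1.06) passed 1 as well, and in replicate 2 they lay below it.

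The clusters contributed unequally. HOXA held 32.3% ± 0.844 of the HOX TPM (SD, n = 2) with 10 of 10 genes detected, and HOXB held 31.1% ± 0.325 with 9 of 10 detected. HOXD held 21.6% ± 0.364 with 7 of 9 detected, and HOXC held the least, 15.0% ± 0.805, with 8 of 9 detected. For HOXC this SD does not cover the uncertain level of HOXC4. In replicate 1 the shares of HOXA and HOXB were 32.9% and 31.4%, and in replicate 2 they were 31.7% and 30.9%. The range of HOXA (31.7 to 32.9%) thus lay above that of HOXB (30.9 to 31.4%), but this order depended on the unit. As a share of the estimated counts, which are not corrected for length, HOXB held 35.3% and HOXA 28.3%. The order of HOXD above HOXC held in both units.

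**Figure D2:**
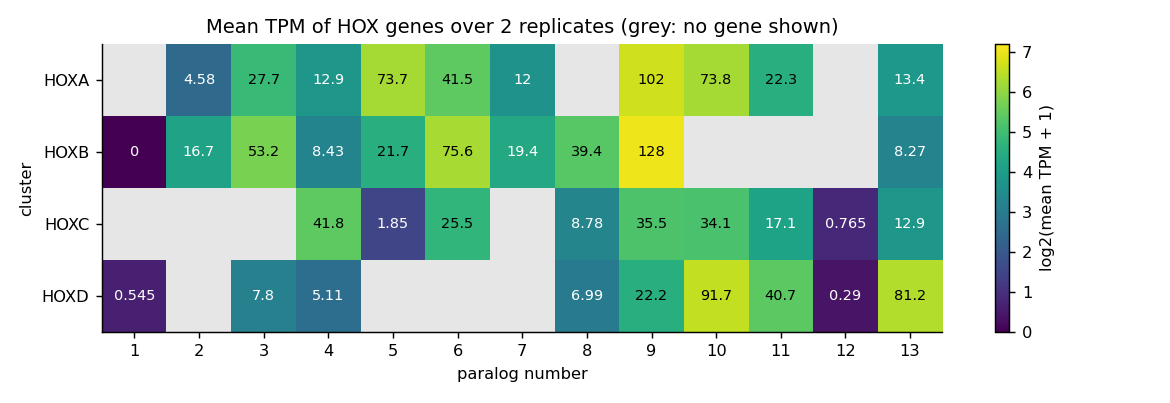
Mean TPM over 2 replicates for each HOX gene, with clusters as rows and paralog numbers as columns; colour gives log2(mean TPM + 1), and grey marks positions with no gene shown. The column of number 9 is high in the HOXA and HOXB rows (102 and 128), and the column of number 12 holds 0.765 and 0.29.

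By position, the posterior genes (numbers 9 to 13) held 57.5% ± 0.972 of the HOX TPM (SD, n = 2), the central genes (4 to 8) 33.1% ± 1.35 and the anterior genes (1 to 3) 9.31% ± 0.382. All 15 central genes were detected, as were 14 of 16 posterior and 5 of 7 anterior genes. The clusters differed in this split. In HOXD the posterior genes held 92.0% ± 1.25 of the TPM of the cluster, from HOXD10, HOXD13, HOXD11 and HOXD9. In HOXA and HOXC the posterior share was 55.2% ± 0.783 and 56.3% ± 2.98. The SD for HOXC does not cover the uncertain level of HOXC4, a central gene. In HOXB it was 36.7% ± 0.648, nearly all of it from HOXB9, and the central genes HOXB4 to HOXB8 held 44.4% ± 2.20. Anterior genes reached 19.0% ± 2.85 of the TPM in HOXB, mostly from HOXB3, compared with 8.37% ± 0.781 in HOXA and 3.25% ± 0.613 in HOXD.

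Paralogs of the same number were compared next. Number 9 had the highest sum, 287.8 ± 14.2 TPM, or 24.2% of the HOX TPM. Within it HOXB9 exceeded HOXA9, HOXC9 (34.27 and 36.72) and HOXD9 (22.34 and 22.03), in that order in both replicates. Number 10 held 16.8%, with HOXD10 above HOXA10 and HOXA10 above HOXC10. For number 11, whose members act together in the metanephric kidney, HOXD11 stood at 38.51 and 42.84, above HOXA11 (22.77 and 21.90) and HOXC11 (17.58 and 16.57).

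The members with number 13 were the least alike among the posterior groups in which every gene was detected. HOXD13 had a mean TPM of 81.2, while HOXA13 (13.67 and 13.10), HOXC13 (13.22 and 12.63), which acts in hair and nails, and HOXB13 (9.25 and 7.29), a prostate gene, stayed below 14 in both replicates. The ratio of the highest to the lowest mean was 9.82. Number 5 was more uneven still, with HOXA5, a gene of lung and axial development, 39.7-fold above HOXC5. By contrast HOXB7 and HOXA7 differed 1.62-fold, and HOXB6, HOXA6 and HOXC6 differed 2.97-fold between the highest and the lowest. Among members with number 4, HOXC4 stood at a mean of 41.8 TPM, and HOXA4 (15.02 and 10.83), HOXB4 (9.36 and 7.49) and HOXD4 (5.86 and 4.35) followed. The deposited TPM intervals of HOXC4 (12.2 to 42.4 in replicate 1) and HOXA4 (11.3 to 18.6) overlapped, so that HOXC4 is not securely the highest. HOXB4 is known for its effect on blood stem cells.

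**Figure D3:**
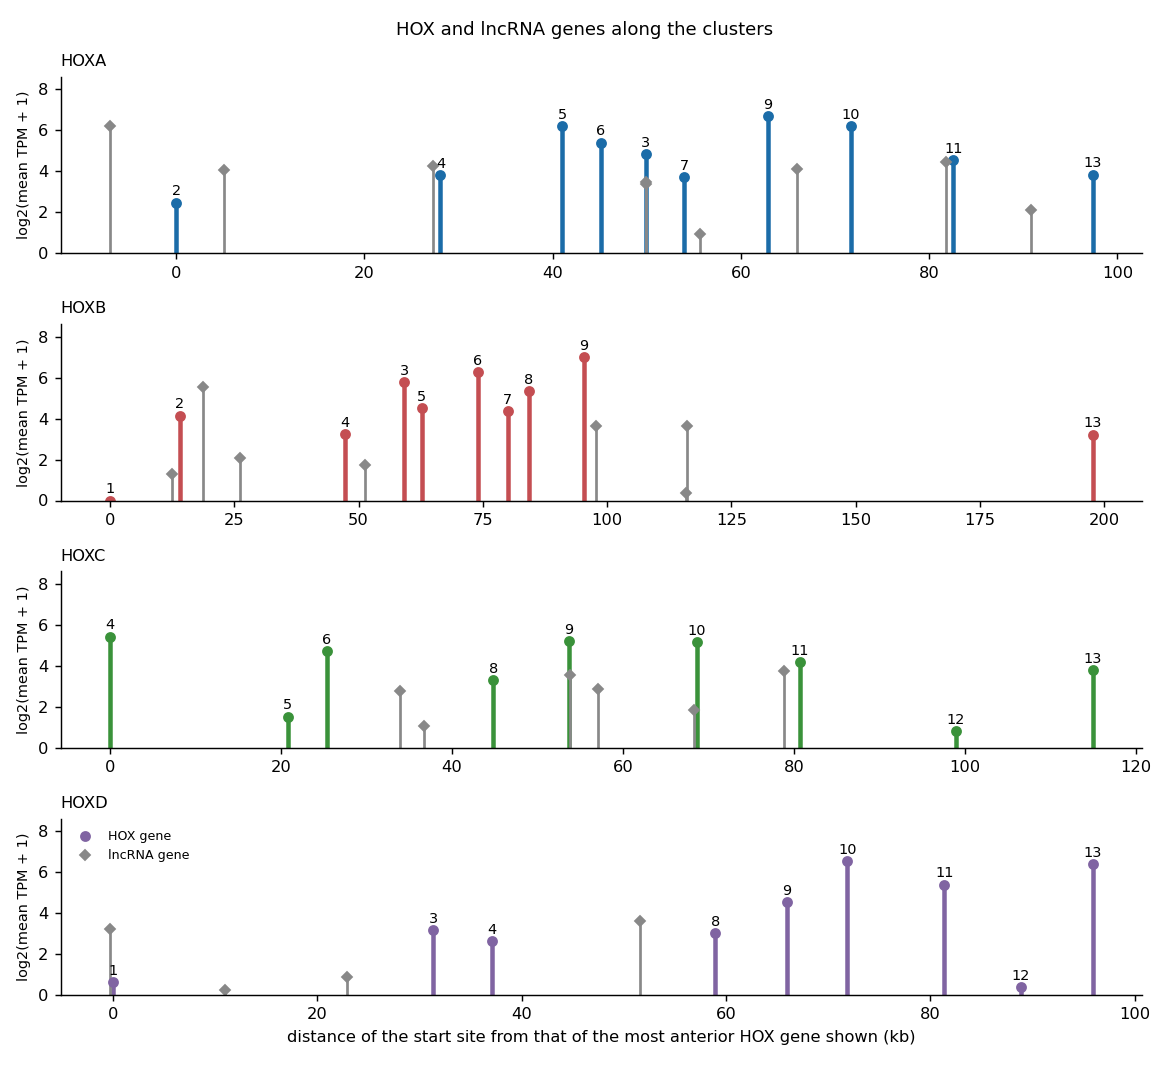
Levels along the clusters, as log2(mean TPM + 1) over 2 replicates, against the distance in kb from the start site of the most anterior HOX gene shown (canonical transcripts; 5′ ends for lncRNA genes). Coloured lines with circles are HOX genes, labelled by paralog number, and grey lines with diamonds are lncRNA genes; the drop at HOXD12 lies between HOXD11 and HOXD13.

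Levels did not follow a smooth gradient along the chromosome. Over 34 pairs of members with adjacent numbers in a cluster, the more posterior gene was higher in 17 pairs and lower in 16, with replicate ranges that did not overlap, and the ranges overlapped only for HOXC9 and HOXC10. Neighbours differed by more than 5-fold in 13 pairs, counting HOXB1 and HOXB2 by the lower bound that the limit of 3 counts gives. Of the 17 rises, 6 were in HOXB and 5 in HOXD. In HOXA and HOXC the more posterior gene was lower more often than it was higher.

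The steepest step that could be given as a ratio was at HOXD12 (chromosome 2, 176964523 to 176967217, plus strand). Its level of 0.34 and 0.24 TPM compares with 82.33 and 80.12 for HOXD13, which ends 3851 bp away, and with 38.51 and 42.84 for HOXD11, which begins 1727 bp away. HOXD13 was 242-fold higher in replicate 1 (95% counting interval 83.1 to 1182) and 334-fold higher in replicate 2 (115 to 1636). HOXD11 was 113-fold higher (38.8 to 554) and 179-fold higher (61.4 to 877). These intervals rest on 3 counts of HOXD12 in each library, and the lowest of their bounds is 38.8. HOXD12 overlaps no other annotated gene, and neither does HOXD13.

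The paralog of HOXD12 showed a like step. HOXC12 was lower than HOXC13 by a factor of 21.7 (12.9 to 39.3) in replicate 1 and 13.7 (8.74 to 22.1) in replicate 2, and lower than HOXC11 by a factor of 28.8 (17.1 to 52.0) and 18.01 (11.5 to 28.9). At the anterior ends, HOXD3 was 14.8-fold (7.65 to 32.8) and 13.7-fold (6.37 to 33.9) above HOXD1. HOXB1 was at least 51.8-fold lower than HOXB2 in replicate 1 and at least 83.8-fold lower in replicate 2, taking 3 counts in each library as the limit for HOXB1. HOXB13, which lies 98405 bp from HOXB9, was 15.4-fold below it.

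The replicates agreed closely for the HOX genes. On the log2(TPM + 1) scale, Pearson's r was 0.987 and Spearman's rho 0.983 across the 34 members that reached 1 TPM in at least 1 library. These values are across genes of the same libraries, and no p is attached. Their absolute differences on this scale had a median of 0.14 and reached 0.70 for HOXB2.

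**Figure D4:**
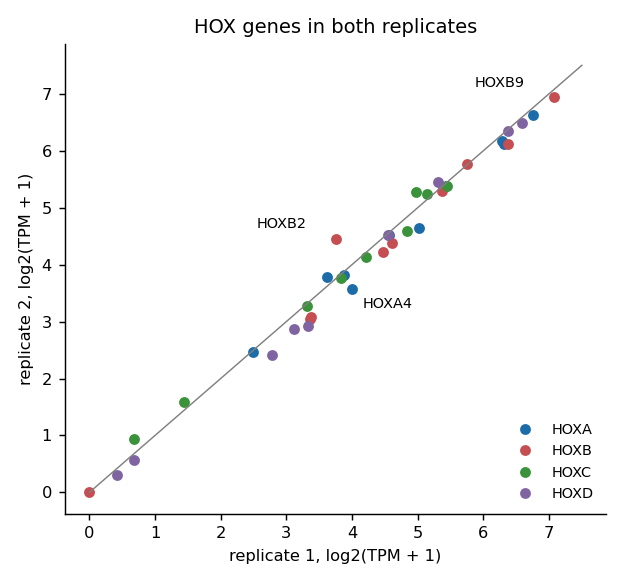
HOX genes in replicate 1 (x axis) and replicate 2 (y axis), as log2(TPM + 1), coloured by cluster, with the line of equality. HOXB2 lies farthest from the line, and HOXA4 and HOXB9 are marked below it.

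The difference in HOXB2 came with its length rather than its counts. HOXB2 had 201 counts in replicate 1 and 199 in replicate 2, but a TPM of 12.49 and 20.97, and its transcript length, which RSEM weights by isoform, was 2205 nt in replicate 1 and 1369 nt in replicate 2. HOXD8 had the opposite shift, with 73.0 and 74.0 counts, lengths of 1330 and 1674 nt and a TPM of 7.63 and 6.34. For HOXD9, HOXD13 and HOXB4 the length was the same in both libraries. Differences between the libraries were therefore tested on counts.

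Whether counts of a gene differed between these libraries by more than the sampling of reads was tested against TMM-scaled library sizes (exact binomial test, two-sided). Of 36 HOX genes with at least 10 counts in sum, 1 had an adjusted p under 0.05, or 2.78%, near the 3.88% of 17920 genes tested. That gene was HOXB9, with 2567 counts in replicate 1 and 2217 in replicate 2, a log2 ratio of -0.13 (adjusted p = 0.0406, exact binomial test with Benjamini-Hochberg adjustment). Its adjusted p was between 0.00803 and 0.0695 under other library sizes and filters. Unadjusted p values under 0.05 were found for 7 HOX genes (19.4%), against 13.3% of all genes tested, and these 7, HOXB9, HOXA3, HOXC6, HOXB6, HOXB13, HOXB4 and HOXA4, were all lower in replicate 2. Among all genes with an unadjusted p under 0.05, 45.0% were lower in replicate 2. In all, 24 of 36 HOX genes (66.7%) were lower in replicate 2, against 49.8% of the genes tested. Among genes with at least 100 counts in sum, the median absolute log2 ratio was 0.06 for 33 HOX genes and 0.09 for all genes. The test compares 2 libraries and not conditions.

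How firmly each value can be read depends in part on overlap with other genes. RSEM shares reads that fit several genes, and 30 of the 38 genes had counts that were not within 0.005 of a whole number in both replicates. By annotation 32 overlap another gene and 24 overlap a gene of the other strand. The strand setting of the counting was not given in the sources used here. HOXC4 was the least certain. The posterior SD of its count was 114 on 465 counts in replicate 1 and 87.7 on 427 in replicate 2. HOXC4 overlaps HOXC5, HOXC6 and 4 further genes, but their posterior SDs were at most 4.86 counts in replicate 1 and 6.5 in replicate 2. Where the uncertainty of HOXC4 comes from was not tested. The deposited interval of the TPM of HOXC4, which RSEM draws around its posterior estimate, ran from 12.2 to 42.4 and from 13.9 to 38.8. The TPM values of HOXC4, 42.84 and 40.75, lay above these bounds. This was not particular to HOXC4. HOXB9 (upper bounds 131.1 and 118.4) and HOXD13 (80.2 and 77.8) also had TPM values above their bounds in both replicates. The interval of HOXC4 was wide, and its rank above HOXA6, HOXB8, HOXC9, HOXC10 or HOXA4 is therefore not secure. In contrast the posterior SD of HOXB9, HOXD13, HOXA5 and HOXC8 was below 1 count.

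HOX clusters also hold noncoding genes, many of them antisense to a HOX gene. Between the outermost HOX genes, and next to HOXA2 for HOTAIRM1, 36 noncoding genes had a value and 19 were detected. These were 19 of 26 lncRNA genes, 0 of 7 miRNA precursors and 0 of 3 processed pseudogenes. By the same rule 27.7% of all genes were detected. The shares over all lncRNA genes, miRNA precursors and pseudogenes were not calculated, so whether these counts are unusual for their class is not known. By cluster, 8 of 9 lncRNA genes were detected in HOXA, 5 of 7 in HOXB, 4 of 6 in HOXC and 2 of 4 in HOXD.

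HOTAIRM1, a regulator of anterior HOXA genes in myeloid cells, was the highest at 72.86 and 75.46 TPM. Its neighbour HOXA2 was at 4.63 and 4.52. HOXB-AS3 had 44.78 and 46.10 TPM and overlaps HOXB3, HOXB4, HOXB5 and HOXB6 on the other strand. HOXA11-AS (23.20 and 18.33) overlapped the range of HOXA11, and HOTAIR, which is transcribed from HOXC, had 12.96 and 11.96. HOXC-AS1 differed between the libraries, with 43 counts in replicate 1 and 14 in replicate 2 (adjusted p = 0.0116, exact binomial test), and HOXC9, which it overlaps, had 290 and 276. Without strand information the reads of such pairs cannot be told apart where their exons overlap.

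Among the miRNA genes are MIR196A1, MIR196A2 and MIR196B, whose products are known to target HOX mRNAs. Their mature sequences, from RefSeq (GRCh38.p14), share the same seed, bases 2 to 8, shown in capitals.
miR-196a-5p: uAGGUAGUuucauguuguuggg
miR-196b-5p: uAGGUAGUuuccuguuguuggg
The 3 precursors had 0 counts in both replicates. A poly(A)+ library of this kind does not capture mature miRNAs, whose level is not given by these values.

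The clusters were compared with the genes around them. Of the nearest 3 protein-coding genes on either side of each cluster, 20 of 24 were detected, beside 63.7% of all protein-coding genes. The exceptions were EVX1, EVX2, SKAP1 and TTLL6, each the first gene beyond an end of a cluster. EVX1 and EVX2 are homeobox genes next to the posterior ends of HOXA and HOXD. EVX2 lies 8759 bp past HOXD13 and had no count in replicate 1 and 2 counts in replicate 2, and EVX1 had 1 and 0. SKAP1 had 0.21 and 0.66 TPM and TTLL6 0.08 and 0.06, at the anterior and posterior ends of HOXB. On the other sides, SKAP2 next to HOXA had 30.41 and 32.21 TPM and MTX2 next to HOXD had 39.68 and 44.61.

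HOX proteins bind DNA together with cofactors of the TALE class. All 8 TALE genes described here were detected, with a median of 25.04 TPM. PBX2 was the highest (71.14 and 69.77), followed by PBX3 (29.96 and 28.28), MEIS2, MEIS1, PKNOX1, MEIS3, PKNOX2 and PBX4 (5.85 and 7.07). PBX2 was also the only gene of the 38 in the lists of cofactors and regulators to differ between the libraries. It had 1434 and 1185 counts (adjusted p = 0.0187, exact binomial test). Not all 38 had enough counts for the test, and 3.88% of all genes tested differed.

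Lists of genes that act upstream of HOX clusters in the embryo varied in how many members were detected. CDX and ParaHox genes, which include activators of central and posterior HOX genes, were detected in 2 of 6 cases, CDX2 at 42.26 and 33.65 TPM and PDX1 at 1.75 and 1.99. CDX1, CDX4, GSX1 and GSX2 had 0 counts in both replicates. Retinoic acid, which induces anterior HOX genes, acts through receptors that were all detected. RARA stood at 15.98 and 16.09 TPM, RARB at 9.29 and 7.56 and RARG at 11.68 and 9.67, and RXRG was the lowest of the RXR genes (1.82 and 2.38). The enzyme ALDH1A2, which makes retinoic acid, had 49.76 and 46.27 TPM, and the binding protein CRABP2 had 51.30 and 43.95. CYP26A1 and CYP26B1, which degrade it, had 1.55 and 2.15 TPM and 4 and 3.85 TPM, respectively. In all 11 of 14 genes of the pathway were detected, and ALDH1A1 (1.04 and 0.75), CYP26C1 and CRABP1 were not.

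All 8 listed activators and chromatin regulators, which maintain HOX expression, were detected, with a median of 47.1 TPM. KMT2A, the histone methyltransferase that is rearranged in leukaemia with high HOXA9, had 49.62 and 48.48 TPM. Its partners MEN1 and PSIP1 had 76.45 and 67.62 and 158.39 and 154.48, and DOT1L, a methyltransferase of another histone residue, 49.07 and 41.26. The complex subunits WDR5, ASH2L and RBBP5 lay between 22.82 and 62.26, and KMT2B was the lowest of the list at 9.62 and 8.72. Over the 5 lists of cofactors and regulators, 29 of 38 genes (76.3%) were detected, beside 63.7% of protein-coding genes. These lists were chosen with earlier results of these data known.

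**Figure D5:**
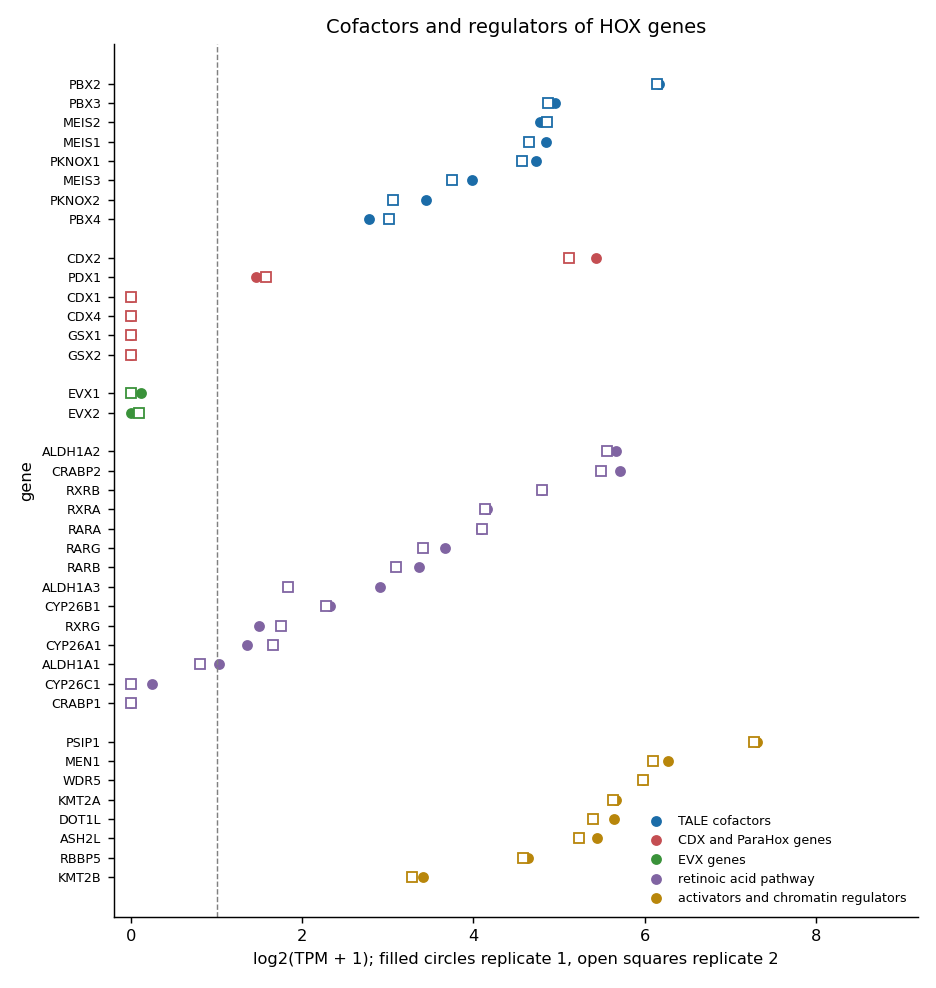
Cofactors and regulators of HOX genes, as log2(TPM + 1) on the x axis, with filled circles for replicate 1, open squares for replicate 2 and colours for the 5 lists. The dashed line at 1 stands for a TPM of 1; all TALE genes and all activators lie to its right, and EVX1, EVX2, CDX1, CDX4, GSX1 and GSX2 lie at or near 0.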

How the data were processed

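Poly(A)+ RNA of 2 HEK293T samples was sequenced as 50-base reads. Per the submitters' processing notes, the authors used Trimmomatic 0.36, STAR 2.6.1c and RSEM 1.3.1 with GRCh37; the study's methods name featureCounts, but the deposited tables have the columns of RSEM. The authors deposited estimated counts, in which reads that fit several genes are shared, TPM values scaled by transcript length to the same total in each library, and FPKM values scaled by length and depth. They also deposited scores for the uncertainty of this sharing, a posterior SD of each count and interval bounds of each TPM. The authors' table of pooled reads was not used.

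GENCODE release 44, lifted to GRCh37, gave symbols, types and coordinates (96.1% of identifiers matched). The samples formed 1 group by their labels. The members and lists were chosen with earlier results of these data known. Any member, any gene of the lists, the noncoding genes of the clusters and the nearest 3 flanking protein-coding genes on each side could be named. In total 39 genes fit the naming rule, and 1 of them, like 1 gene of the lists, is not reported here and enters no sum, share or count over its group.

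The libraries were set against each other gene by gene with a two-sided exact binomial test (scipy 1.17.1) of rounded counts given TMM library sizes (edgeR 4.0.16, R 4.3.3). P values were adjusted by Benjamini-Hochberg over the 17920 genes whose counts summed to 10 or more. The procedure was also run on simulated counts. These had no spread between libraries beyond the sampling of reads, as the test assumes, so the run cannot show how the test behaves with more spread. Log2 ratios of counts used 0.5 added counts. Intervals of ratios between neighbours are 95% exact binomial intervals of their counts, per library, and cover counting error only. Alternatives were other thresholds, units, class limits, library sizes, filters and pseudocounts, and leaving out each replicate.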

Additional observations from a re-analysis of the deposited data

How the results depend on the processing

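No paired analysis was possible because there is only 1 group. The 34 HOX genes detected became 37 at a TPM of 0.1, 31 at a TPM of 5, 35 with at least 10 estimated counts and 34 with FPKM or with either replicate alone. The gene added by the rule on counts was HOXC12, with 15 and 21.7 counts. The 29 cofactors and regulators ranged from 24 to 30 under the same settings, which were added after the data were seen for this list. The shares moved with the unit. As shares of the estimated counts, HOXA held 28.3%, HOXB 35.3%, HOXC 14.1% and HOXD 22.3%, and the anterior, central and posterior genes held 9.74%, 29.2% and 61.1%. With number 8 counted as posterior, the central share was 28.5% and the posterior share 62.2%. A common length for both replicates, added after the data were seen, moved no share by more than the spread between the replicates. Leaving out 1 of 2 replicates returns the share of the other, which cannot lie farther than that spread from the mean, so it tests nothing. The 1 HOX gene that differed between the libraries, HOXB9, also differed with RLE sizes (adjusted p = 0.00803, exact binomial test), with total counts (0.0228) and among protein-coding genes alone (0.0494, added after the data were seen). With no filter on low counts it did not (0.0695, with 30700 genes tested), so 0 HOX genes differed, and among genes with whole counts (within 0.005), which leave 6 HOX genes and not HOXB9, 0 differed. Pearson's r of the replicates stayed between 0.987 and 0.993. With 2 replicates and no second group, neither the spread nor any effect of a condition on HOX genes could be estimated well, and genes under about 10 counts, such as HOXD12 and HOXD1, are limited by depth.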
